A study of Mus musculus with 36 samples.

Results

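The genes described here are 6 sterol-regulated genes in the livers of 36 male C57BL/6 mice (C57BL/6J in the study's methods), followed from before birth to adulthood: Hmgcs1, Mvk, Sqle, Cyp51, Dhcr7 and Stard4. They were chosen by symbol, and all 6 have a row among the 21889 rows of the deposited expression table. Hmgcs1 is listed at 0 in all 36 mice, so 5 genes carry values, and all 5 were among the 11149 genes tested, which reached a mean of at least 1 FPKM (fragments mapped to a gene, per kilobase of its transcript and scaled to the size of the library) at 1 age or more. The 12 ages, with 3 mice each, were GD17.5 (late gestation, given as Day -2 in the sample labels), Day 0 (after birth, before suckling began), Days 1, 3, 5, 10, 15 and 20 (suckling) and Days 25, 30, 45 and 60 (after weaning at 21 days of age). No treatment was given, the mice ate standard chow after weaning, and the mice of an age were drawn at random from several litters whose identity is not given in the sources used here, so p-values measure the spread between these mice.

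Cholesterol synthesis in the liver is governed by SREBP2, a transcription factor made as a precursor in the membrane of the endoplasmic reticulum. When sterols in that membrane are low, the escort protein SCAP carries the precursor to the Golgi, where proteases release its active part, and when sterols are high, INSIG proteins hold SCAP back. The active part enters the nucleus and binds sterol regulatory elements in the promoters of its targets, among them the enzymes of sterol synthesis. Among the genes described, Hmgcs1 encodes the cytosolic HMG-CoA synthase, Mvk the kinase that phosphorylates mevalonate, Sqle the squalene epoxidase (a rate-limiting oxygenation), Cyp51 the lanosterol demethylase and Dhcr7 the reductase of the last step to cholesterol. Stard4 makes no sterol; it encodes a small START domain protein that carries cholesterol between membranes.

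The promoters are shown first because sterol regulation acts through them. RefSeq promoter sequences (table of build GRCm38.p6) were found for 4 of the 6 genes: Hmgcs1, Cyp51, Dhcr7 and Mvk. Each line gives the 250 bases before a start site, 5′ to 3′ on the strand of the gene, with matches to TCACNCCAC (a form of the sterol regulatory element) and to CCAAT (the box bound by NF-Y, a usual partner of SREBP2) in capitals, on either strand. For Dhcr7, the most downstream of 3 listed starts is shown. Exact matching placed them in NCBIM37, the build of the deposited data (mm9), at chr5:4104698-4104947 (Cyp51, minus strand), chr7:151015869-151016118 (Dhcr7, plus strand) and chr5:114894028-114894277 (Mvk, plus strand).
Hmgcs1: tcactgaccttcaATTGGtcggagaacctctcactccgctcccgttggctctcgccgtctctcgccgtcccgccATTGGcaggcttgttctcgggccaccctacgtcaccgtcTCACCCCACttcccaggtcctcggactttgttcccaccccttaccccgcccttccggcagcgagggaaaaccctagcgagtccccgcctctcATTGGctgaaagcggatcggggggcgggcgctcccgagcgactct
Mvk: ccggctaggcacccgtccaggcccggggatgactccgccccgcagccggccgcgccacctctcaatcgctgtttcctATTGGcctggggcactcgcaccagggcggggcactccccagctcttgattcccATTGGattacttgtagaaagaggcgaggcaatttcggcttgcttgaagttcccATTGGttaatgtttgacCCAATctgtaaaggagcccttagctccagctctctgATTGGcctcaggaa
Cyp51: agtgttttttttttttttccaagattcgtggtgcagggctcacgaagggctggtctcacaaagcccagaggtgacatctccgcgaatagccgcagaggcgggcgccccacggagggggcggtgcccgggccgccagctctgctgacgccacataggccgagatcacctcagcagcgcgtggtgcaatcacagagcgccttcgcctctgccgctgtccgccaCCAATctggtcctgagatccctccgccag
Dhcr7: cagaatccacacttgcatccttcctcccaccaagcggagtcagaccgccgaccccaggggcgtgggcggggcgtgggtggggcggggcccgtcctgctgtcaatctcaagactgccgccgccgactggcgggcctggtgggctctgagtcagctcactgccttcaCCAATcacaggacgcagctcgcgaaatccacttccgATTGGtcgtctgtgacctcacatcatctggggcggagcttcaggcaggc

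The Hmgcs1 stretch holds the 1 match to TCACNCCAC among these promoters, TCACCCCAC, whose first base is at position -137 from the start site. In the same window 1.05% of all 32851 promoters of that source hold this motif. CCAAT matched 3 times before Hmgcs1, 5 times before Mvk, 1 time before Cyp51 and 2 times before the Dhcr7 start shown, against 33.8% of all promoters with at least 1 match, and the other 2 Dhcr7 starts had none. The 5 matches before Mvk lie in a stretch that it shares with Mmab, a gene of cobalamin metabolism read in the opposite direction, whose start lies 241 bases away. These are letter matches and not measured binding sites.

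The symbol Hmgcs1 was not found among the genes of GENCODE M1, the annotation of NCBIM37. Its promoter stretch matched none of the chromosomes of that build and matched 2 of the unplaced sequences exactly, 1 time each, among 211 sequences searched. Whether its transcript also lies in that build 2 times was not tested, and its row is given here as listed at 0, with no level read from it. In GENCODE M1 the other genes lie at chr5:114894278-114910600 (Mvk, ENSMUSG00000041939.8), chr15:59146632-59162747 (Sqle, ENSMUSG00000022351.8), chr5:4081145-4104746 (Cyp51, ENSMUSG00000001467.4), chr7:151009050-151034315 (Dhcr7, ENSMUSG00000058454.8) and chr18:33359009-33373516 (Stard4, ENSMUSG00000024378.3).

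Summed FPKM ranged from 353712 to 450597 per mouse, and replicate mice correlated over the tested genes with r from 0.952 to 0.997 (36 pairs). The 5 markers of hepatocytes were above 0 at every age, with the lowest sum (6700 FPKM) at GD17.5 and the highest (63527 FPKM) at Day 15. The fetal liver also makes blood, and 6 erythroid markers summed to a mean of 156499 FPKM at GD17.5, which had fallen to 3285 by Day 15 and 681 by Day 60. In whole liver, fewer cells of a type and less RNA per cell cannot be told apart. Skeletal muscle markers stood out in Day 0 mouse 1, with a sum of 1126 FPKM against 4.08 and 4.37 FPKM in the other Day 0 mice, and less so in Day 10 mouse 1, with 75.6 FPKM against 7.17 and 1.15 FPKM. Markers of exocrine pancreas summed to 12117 FPKM in Day 60 mouse 1 (4.54 and 4.34 FPKM in the others of that age), 4073 in Day 20 mouse 2, 3848 in Day 0 mouse 3, 3110 in Day 15 mouse 3 and 2877 in Day 45 mouse 1, and to no more than 999 FPKM in any other mouse.

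All 5 genes with values were lowest at Day 15, the age at which 4.07% of all tested genes were lowest. Each also differed from Day 60 in at least 1 age (limma, adjusted over genes and ages), as did 90.7% of all genes tested. Sqle, Cyp51, Dhcr7 and Mvk fell between Day 10 and Day 15, stayed low at Day 20 and rose again at Day 25, 4 days after weaning. Marker sums that moved with the fall to Day 15 without overlap were those of neutrophils (111 to 279 FPKM at Day 10 and 12.4 to 37 FPKM at Day 15), dividing cells (9.27 to 11.4 and 5.86 to 7.68 FPKM), skeletal muscle (1.15 to 75.6 and 0.225 to 0.874 FPKM) and hepatocytes, which were higher at Day 15 (50509 to 55471 and 58009 to 63527 FPKM). Their part in the fall was not tested. Without Day 10 mouse 1 the log2 changes from Day 10 to Day 15 were -2.68 for Sqle, -2.19 for Cyp51, -1.45 for Dhcr7 and -1.05 for Mvk, and without Day 15 mouse 3 they were -2.88, -2.29, -1.58 and -1.07, all called. The depth of the trough was taken as highest age mean over lowest. It was 64.6-fold for Sqle, 18.1-fold for Cyp51, 9.64-fold for Dhcr7, 4.53-fold for Mvk and 3.18-fold for Stard4. The highest age was GD17.5 for Sqle and Stard4 and Day 25 for Cyp51, Dhcr7 and Mvk.

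**Figure D1:**
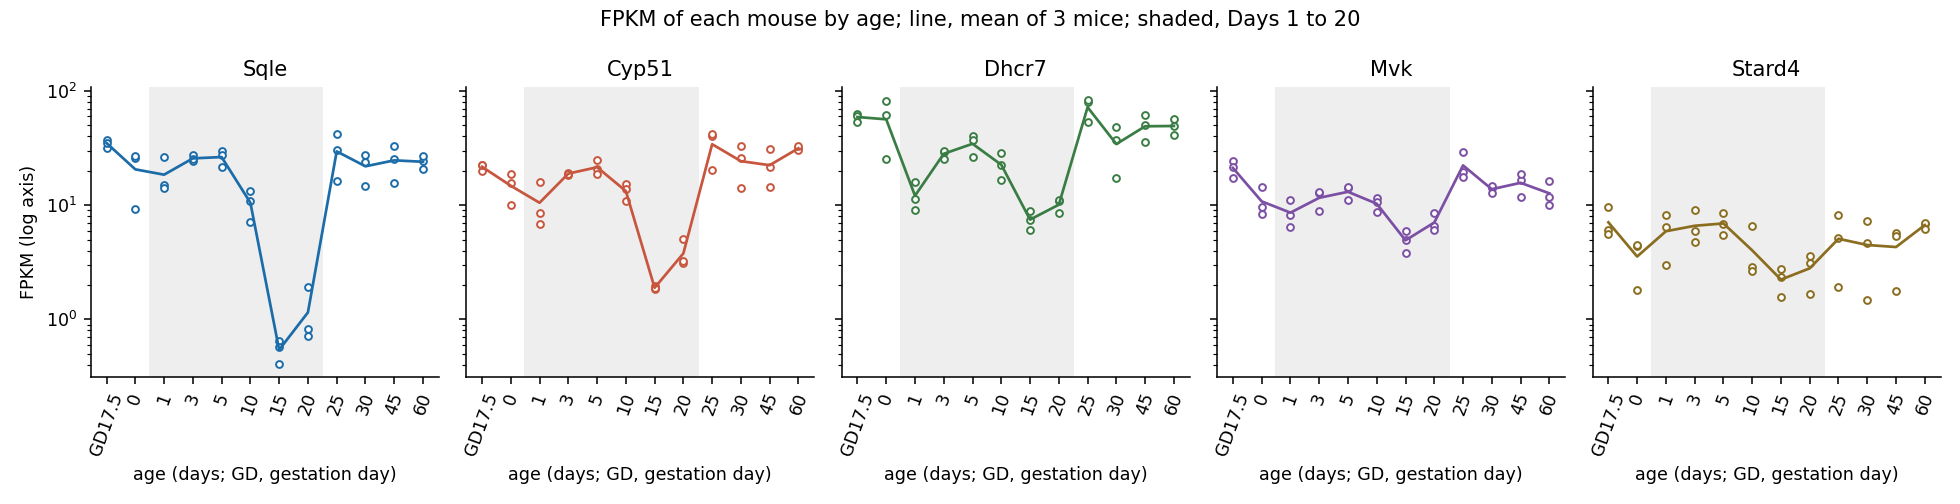
FPKM (log axis) of Sqle, Cyp51, Dhcr7, Mvk and Stard4 at 12 ages; circles are mice, lines join the means of 3 mice, and the shaded band covers Days 1 to 20. The line of Sqle drops to 0.541 FPKM at Day 15, against 10.5 FPKM at Day 10, and is back at 29.6 FPKM by Day 25, while that of Stard4 stays between 2.23 and 7.08 FPKM.

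Squalene epoxidase showed the widest range. Sqle was measured at 37.5, 32 and 35.4 FPKM in the 3 mice of GD17.5 and at 29.9, 27.7 and 21.5 FPKM at Day 5. Its values were 13.3, 10.9 and 7.19 FPKM at Day 10 and then 0.408, 0.646 and 0.571 FPKM at Day 15. All Day 15 mice lay below all Day 10 mice, and Day 15 stood at 2.25% of the Day 60 mean (24 ± 2.94 FPKM, SD, n = 3). At Day 20 the mice had 1.91, 0.817 and 0.709 FPKM, and at Day 25 they had 42.1, 16.3 and 30.3 FPKM, a 25.8-fold difference of means with no overlap. On the log2(FPKM + 1) scale, which understates changes of low values, Sqle fell by 1.28 (SE 0.34, adjusted p = 0.00385) from Day 5 to Day 10 (limma), a call lost with upper quartile scaling of the libraries (-0.84, adjusted p = 0.0681). From Day 10 to Day 15 it fell by 2.86 (SE 0.34, adjusted p = 5.13e-07). The rise from Day 20 to Day 25 was 3.78 (SE 0.34, adjusted p = 2.4e-09). In the order of its 12 age means the mice of neighbouring ages overlapped down to Day 1, and Days 10, 20 and 15 were each separated from the age above.

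Lanosterol demethylase followed the same course over a smaller range. Cyp51 had 15.2, 13.8 and 10.8 FPKM at Day 10, and 1.86, 1.94 and 1.89 FPKM at Day 15, where the 3 mice were nearly equal. At Day 20 it was at 5.01, 3.11 and 3.24 FPKM, still below every mouse of the 6 ages up to Day 10. After weaning the Day 25 mice had 40.1, 20.5 and 42 FPKM, and the Day 60 mice 31.4, 30.6 and 32.7 FPKM. Cyp51 fell by 2.29 (SE 0.29, adjusted p = 1.89e-06) from Day 10 to Day 15 and rose by 2.84 (SE 0.29, adjusted p = 3.4e-08) from Day 20 to Day 25. Its level was also low at Day 1, at 8.47, 16 and 6.85 FPKM, and below Day 60 by a log2 difference of -1.59 (SE 0.29, adjusted p = 2.29e-05). In the order of its age means, neighbours overlapped down to Day 1, and Days 20 and 15 were each separated from the age above.

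Dhcr7 fell on the first day of life as well as at mid-suckling. The Day 0 mice had 25.3, 61.9 and 82.3 FPKM and the Day 1 mice, 24 h after birth, had 11.3, 15.9 and 8.99 FPKM. No Day 1 mouse reached the lowest Day 0 mouse, which was the one with muscle markers, and the means differed 4.69-fold. The fall was 2.02 on the log2 scale (a change of -2.02, SE 0.32, adjusted p = 3.07e-05), with -2.50 (adjusted p = 4.62e-07) without Day 0 mouse 1 and -1.67 (adjusted p = 0.000837) without Day 0 mouse 3, the one with pancreas markers. Dhcr7 was the only one of the 5 genes called at this step, where 7.88% of all genes fell. Leaving out Day 1 mouse 2, Cyp51 was called too (log2 change -0.84, adjusted p = 0.0404). Of 16 other enzymes of sterol synthesis, 7 also fell at this step and 2 rose. Fdps changed by -2.79 (SE 0.26) and Nsdhl by -1.79 (SE 0.22). Erythroid markers moved with this step, from sums of 59392 to 79791 FPKM at Day 0 to 21196 to 33374 FPKM at Day 1. Sums of neutrophils (1854 to 2053 and 1035 to 1357 FPKM) and dividing cells (31.8 to 32.7 and 23.2 to 30.2 FPKM) also fell without overlap. Those of macrophages (33 to 62.9 and 107 to 124 FPKM) and 12 clock genes (19.5 to 29.8 and 34 to 57.8 FPKM) rose without overlap. The study timed Day 0 and Day 1 from birth and gave no hour of day. The part of these cell and clock markers in the fall of Dhcr7 was not tested. Dhcr7 then rose by 1.19 (SE 0.32, adjusted p = 0.0151) to Day 3, at 25.4, 29.1 and 30.1 FPKM, where 8.22% of all genes rose. Cyp51 rose there too, by 0.88 (SE 0.29, adjusted p = 0.0481), a call that 30 of the alternatives tried did not keep, with the lowest change 0.64 (adjusted p = 0.279) without Day 1 mouse 3. The rise of Dhcr7 was not called either without that mouse (1.02, adjusted p = 0.0964), Day 3 mouse 2 (1.17, adjusted p = 0.0551) or Day 3 mouse 3 (1.15, adjusted p = 0.0562).

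At mid-suckling Dhcr7 reached its lowest level, with 6.08, 7.35 and 8.98 FPKM at Day 15 against 22.3, 28.8 and 16.6 FPKM at Day 10. Day 20 brought 10.8, 8.61 and 11 FPKM and Day 25 brought 79.5, 54 and 82.7 FPKM, so that the lowest Day 25 mouse was above every Day 20 mouse. The fall to Day 15 was 1.46 (a change of -1.46, SE 0.32, adjusted p = 0.00252) and the rise to Day 25 was 2.70 (SE 0.32, adjusted p = 7.56e-07).

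Mevalonate kinase changed least among the 4 enzymes. Mvk had 17.4, 24.6 and 21.6 FPKM at GD17.5 and 8.44, 9.73 and 14.3 FPKM at Day 0, with no overlap. It fell to 3.85, 4.92 and 5.99 FPKM at Day 15, was at 6.59, 6.08 and 8.47 FPKM at Day 20 and rose to 19.7, 29.4 and 17.6 FPKM at Day 25. The log2 changes were -0.93 (SE 0.22, adjusted p = 0.000964) at birth, -0.94 (SE 0.22, adjusted p = 0.00409) from Day 10 to Day 15 and 1.51 (SE 0.22, adjusted p = 1.76e-05) from Day 20 to Day 25. Mvk was above Day 60 at GD17.5 by 0.71 (SE 0.22, adjusted p = 0.00533), where 56.4% of all genes were higher, and at Day 25 by 0.75 (SE 0.22, adjusted p = 0.0325), where 4.18% were.

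Stard4, the sterol carrier, moved little beyond its spread. Its Day 15 mice had 2.76, 2.34 and 1.58 FPKM and its Day 60 mice 6.87, 7.04 and 6.2 FPKM. That difference was -1.27 (SE 0.42, adjusted p = 0.025) and was not kept without Day 15 mouse 3 (-1.12, adjusted p = 0.0879), Day 60 mouse 1 (-1.25, adjusted p = 0.0641) or Day 60 mouse 2 (-1.24, adjusted p = 0.0675). From Day 20 (3.62, 3.1 and 1.67 FPKM) to Day 25 (8.17, 1.91 and 5.15 FPKM) the mice overlapped, and the change of 0.57 (SE 0.42, adjusted p = 0.531) did not pass. No pair of neighbouring ages in the order of Stard4 was free of overlap, and none of its 11 steps passed the test.

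By steps between neighbouring ages, the 5 genes gave 14 calls in all. At birth 2 of 5 fell (Mvk and Sqle), a step at which 41.4% of all genes fell. The fall of Sqle at birth was 0.87 (a change of -0.87, SE 0.34, adjusted p = 0.031) and became -0.39 (adjusted p = 0.323) without Day 0 mouse 1, in which Sqle was at 9.19 FPKM against 25.8 and 26.9 FPKM. It was not called without GD17.5 mouse 1 (-0.82, adjusted p = 0.0822) or mouse 3 (-0.86, adjusted p = 0.0635), nor with upper quartile scaling (-0.60, adjusted p = 0.117). From Day 5 to Day 10, 1 of 5 fell, with 34.4% of all genes. At the step to Day 15, 4 of 5 fell and 10.5% of all genes did. At the step from Day 20 to Day 25, 4 of 5 rose, against 3.94% of all genes, and this count stayed at 4 whichever of the 36 mice was dropped. By limma no gene passed from Day 3 to Day 5, Day 15 to Day 20, Day 25 to Day 30, Day 30 to Day 45 or Day 45 to Day 60. At an unadjusted p under 0.05 those steps held 0, 1 (Cyp51), 2 (Dhcr7 and Mvk), 0 and 0 genes.

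**Figure D2:**
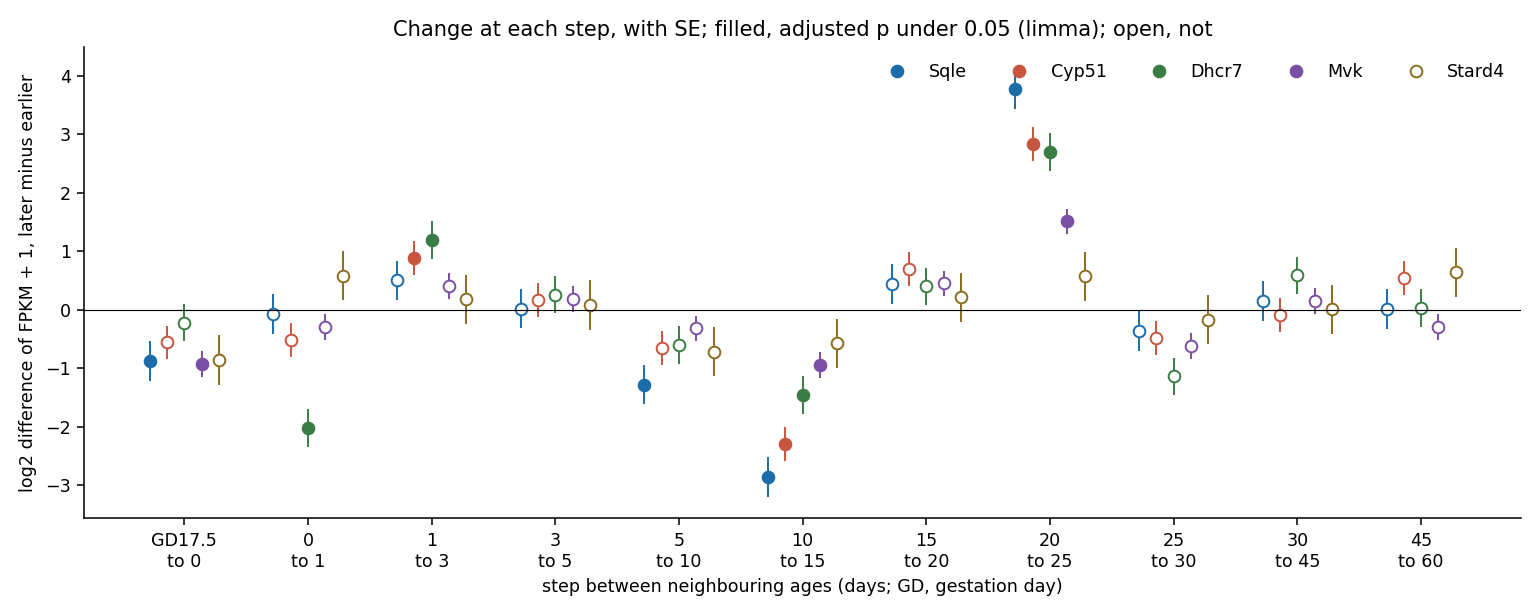
Log2 difference of FPKM + 1 between each age and the one before it (later minus earlier) for the 5 genes; points are limma estimates with SE, filled where the adjusted p is under 0.05 and open where not. The filled points gather below 0 at Day 10 to 15 (from -0.94 to -2.86) and above 0 at Day 20 to 25 (from 1.51 to 3.78), and Stard4 has none.

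Against Day 60, all 5 genes were lower at Day 15, where 8.95% of all genes were lower, and 4 of 5 were lower at Day 20, where 6.99% were. Relative to adult level, Day 15 was at 6.01% for Cyp51, 15.1% for Dhcr7, 38.7% for Mvk and 33.2% for Stard4. At Day 20, Mvk was lower by a log2 difference of -0.76 (SE 0.22, adjusted p = 0.0168), a call lost without Day 60 mouse 3 (-0.58, adjusted p = 0.118), Day 20 mouse 1 (-0.72, adjusted p = 0.0627) or Day 20 mouse 2 (-0.67, adjusted p = 0.0741). Without Day 60 mouse 1, the mouse with the highest pancreas sum, the Day 15 differences from Day 60 were -4.00 for Sqle, -3.49 for Cyp51, -2.57 for Dhcr7 and -1.24 for Mvk, all called.

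Taken as one period, suckling (Days 1 to 20) was compared with the ages after weaning (Days 25 to 60). Cyp51 (-1.49, SE 0.13, adjusted p = 3.27e-11), Dhcr7 (-1.49, SE 0.15, adjusted p = 3.35e-10), Sqle (-1.50, SE 0.15, adjusted p = 6.08e-10) and Mvk (-0.76, SE 0.10, adjusted p = 8.75e-08) were lower in suckling on the log2 scale. Stard4 differed by -0.10 (SE 0.19, adjusted p = 0.634). Of all genes 11.7% were lower and 68.1% higher, with a median log2 difference of 0.39, so these 4 genes moved against the bulk of genes. After upper quartile scaling of the libraries the median was 0.13, the genes called higher and lower went from 7587 and 1299 to 5054 and 2878, and Stard4 passed as lower (-0.44, adjusted p = 0.0322).

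Within suckling, Days 1 to 10 were also compared alone, a comparison chosen after seeing the data. Sqle differed from the ages after weaning by -0.34 (SE 0.17, adjusted p = 0.0617). Cyp51 (-0.78, SE 0.14), Dhcr7 (-1.06, SE 0.16) and Mvk (-0.50, SE 0.11) were lower there too, 3 of 5 genes against 11.2% of all genes, while the difference of Sqle did not pass. Against GD17.5 and Day 0 as a pair, Days 1 to 20 were lower for 4 of 5 genes, with 40.7% of all genes lower. Dhcr7 differed there by -1.68 (SE 0.19), Sqle by -1.58 (SE 0.19), Cyp51 by -0.92 (SE 0.17), Mvk by -0.71 (SE 0.13) and Stard4 by -0.16 (SE 0.24, adjusted p = 0.583).

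Whether the 5 genes differed from each other in the size of this fall was tested over age means, 6 suckling ages against 4 after weaning, with a two-sided exact permutation test of 210 splits and adjustment over 10 pairs. The splits treat the ages as exchangeable although they follow each other in time. A steady trend with age could therefore also give a small p in this test. Dhcr7 fell more than Stard4 by 1.39 on the log2 scale (a difference of -1.39, exact p = 0.00476, the smallest this test can give, adjusted p = 0.0476). That call was lost without Day 5 mouse 3 and without Day 10 mouse 1. The same difference for Cyp51 against Stard4 (-1.39) had an exact adjusted p = 0.0952, as had Dhcr7 against Mvk (-0.73) and Mvk against Stard4 (-0.66). Sqle against Stard4 (-1.39) reached an exact adjusted p = 0.162. The age means of Sqle are the most spread.

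Several other measures also differed between the Day 20 mice and the Day 25 mice. The 12 clock genes summed to 41.2 to 54.8 FPKM at Day 20 and 9.4 to 18.2 FPKM at Day 25, with Dbp, a clock output factor, at means of 9.46 and 0.598 FPKM. At Day 60 the clock sum was 44.3 to 47.7 FPKM, with Nr1d1, a clock repressor, at a mean of 28.3 FPKM (7.55 FPKM at Day 20 and 1.92 FPKM at Day 25) and Dbp at 1.97 FPKM. Erythroid sums were 3423 to 4573 FPKM at Day 20 and 2392 to 2589 FPKM at Day 25, while hepatocyte sums overlapped (49419 to 52514 and 51225 to 55710 FPKM). Stellate cell markers were lower at Day 25 without overlap (43.2 to 45.7 and 17.6 to 28.6 FPKM), as were biliary markers (8.67 to 10.3 and 7.17 to 7.47 FPKM), and the endothelial ranges met at 58.7 FPKM (58.7 to 71.3 and 55.5 to 58.7 FPKM). The study's methods give the same morning hour of collection for Days 20, 25 and 60. The part of these marker and clock measures in the rise was not tested. Without Day 20 mouse 2, the mouse with pancreas markers, the rises were 3.68 for Sqle, 2.74 for Cyp51, 2.59 for Dhcr7 and 1.42 for Mvk, all called.

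The rest of the sterol pathway was read from a list of 16 other enzymes, all tested. In suckling against after weaning 13 were lower and 1 higher, against 11.7% and 68.1% of all genes. The median log2 difference was -1.13 against 0.39 for all genes. The largest falls were those of Fdps (farnesyl diphosphate synthase, 8.95 against 42.3 FPKM, -2.36, SE 0.12) and Pmvk (phosphomevalonate kinase, 7.84 against 38.3 FPKM, -2.15, SE 0.09), where no suckling mouse reached a mouse after weaning. Idi1 (isopentenyl diphosphate isomerase, -1.95, SE 0.17), Sc4mol (the C4 sterol methyl oxidase, -1.86, SE 0.13) and Nsdhl (the decarboxylating sterol dehydrogenase that acts with it, -1.65, SE 0.10) followed. Lbr was the 1 enzyme that was higher (7.26 against 1.18 FPKM, 1.54, SE 0.12). Its protein is a receptor for lamin B in the nuclear envelope as well as a sterol reductase.

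From Day 20 to Day 25, 11 of the 16 rose and none fell, where 3.94% of all genes rose. The median log2 change was 1.82 against -0.07 for all genes. Fdps went from 3.96, 2.97 and 3.67 FPKM to 50.4, 79 and 53 FPKM (3.75, SE 0.26, adjusted p = 8.67e-12). Nsdhl went from 4.41, 2.89 and 3.55 FPKM to 45.8, 37.6 and 45.3 FPKM (3.26, SE 0.22, adjusted p = 5.04e-12), and Pmvk from 5.87, 6.42 and 6.37 FPKM to 48.8, 64.3 and 45.6 FPKM (2.89, SE 0.20). Beside them stands the rise of Sqle (3.78), and its difference from that of Fdps was not tested. Between Day 10 and Day 15, 9 of the 16 fell and none rose, where 10.5% of all genes fell. Day 15 was the lowest age of 9 of the 16 and of 4.07% of all genes, and Day 25 the highest of 10 of the 16 and of 1.98% of all genes.

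**Figure D3:**
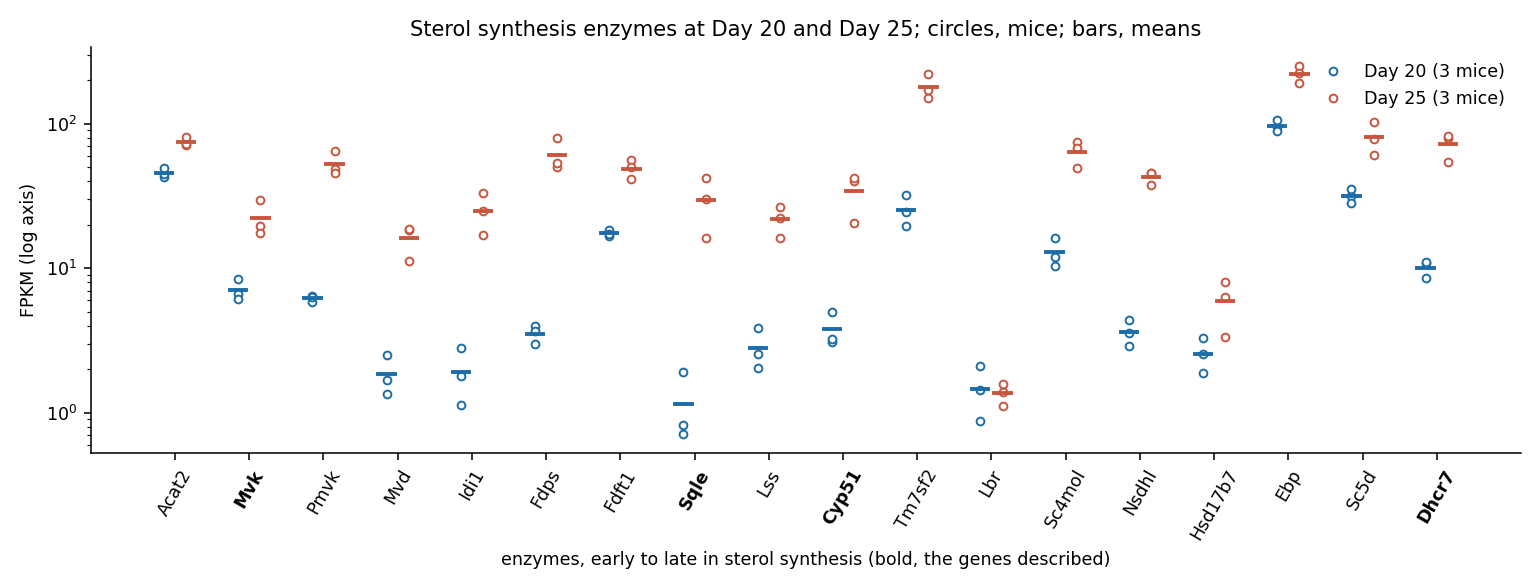
FPKM (log axis) of 18 enzymes of sterol synthesis at Day 20 (blue) and Day 25 (red), from early to late in the pathway; circles are mice and bars the means of 3 mice. The red circles lie above the blue ones for every enzyme shown except Lbr, where the mice of both ages overlap.

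The genes of SREBP processing and of sterol-regulated degradation did not move as a group. Of 9 listed, 8 were tested, and in suckling against after weaning 3 were higher, 2 lower and 3 not called. Of all genes tested, 68.1% were higher and 11.7% lower. With upper quartile scaling 1 of the 8 was higher and 4 lower, and 5 values changed sign. Of all 11149 genes, 5054 were higher and 2878 lower under that scaling. Srebf2, the gene of SREBP2 itself, averaged 15.4 FPKM in suckling and 11.6 FPKM after weaning (0.35, SE 0.12, adjusted p = 0.0096), but with upper quartile scaling the difference was -0.04 (adjusted p = 0.761). Scap (0.31, SE 0.12, adjusted p = 0.0171) likewise turned to -0.09 (adjusted p = 0.418) under that scaling. Mbtps1, the protease that makes the first cut in the Golgi, was higher under both (0.92, SE 0.11, and 0.54). March6, of a ligase that degrades sterol enzymes, had 0.18 (SE 0.15, adjusted p = 0.253), which became -0.19 with that scaling.

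Insig1 and Insig2, which hold SCAP in the endoplasmic reticulum, were both lower in suckling. Insig1 is itself an SREBP target, and it averaged 6.32 FPKM in suckling against 29.1 FPKM (-2.07, SE 0.19, adjusted p = 7.93e-11), with no overlap between the mice. Its Day 15 mice had 2.79, 3.14 and 1.88 FPKM, its Day 20 mice 12.6, 9.53 and 5.82 FPKM and its Day 25 mice 42.2, 15.5 and 17.2 FPKM. The Day 25 rise of 1.24 (SE 0.42, adjusted p = 0.0729) did not pass although the mice did not overlap. Insig2 differed from it in shape, with age means that were lowest at GD17.5 (2.35 FPKM), at 31.9 FPKM at Day 15, and between 54.5 and 57.6 FPKM after weaning. From Day 20 to Day 25 Insig2 was the 1 gene of the group called (0.94, SE 0.29, adjusted p = 0.0462), and none was called with libraries scaled to an equal sum. Srebf2 had 6.79, 8.24 and 9.3 FPKM at Day 15, its lowest age, and was the 1 gene of the group called lower from Day 10 to Day 15 (-0.85, adjusted p = 0.0305), a call that equal-sum scaling did not keep (-0.86, adjusted p = 0.053).

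**Figure D4:**
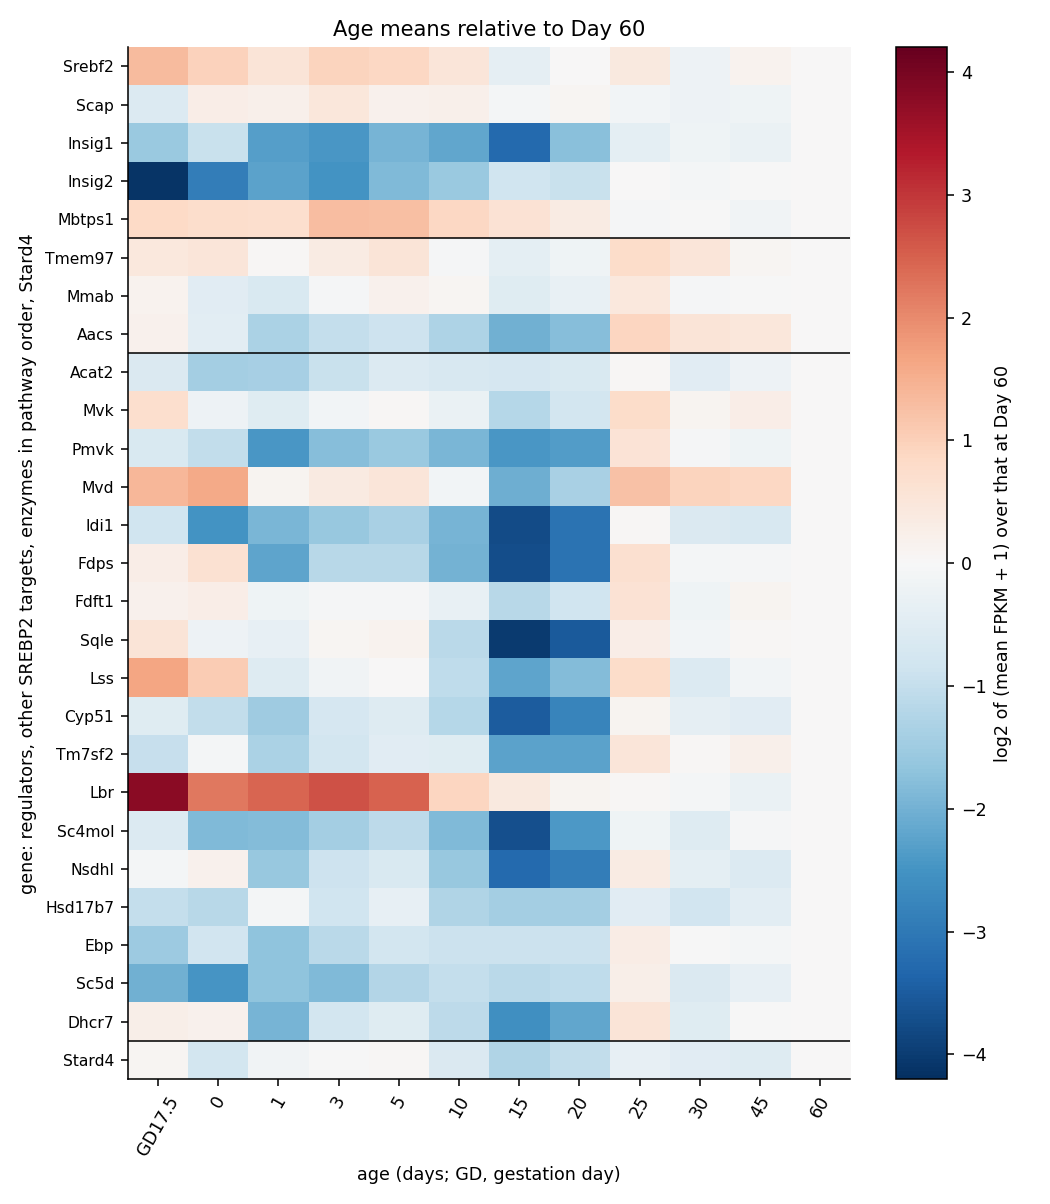
Log2 of the age mean (FPKM + 1) over that of Day 60 for regulators, other SREBP2 targets, sterol enzymes in pathway order and Stard4, at 12 ages; blue is below and red above Day 60. Sqle and Cyp51 share the dark blue columns at Days 15 and 20 with Idi1, Fdps, Nsdhl and Sc4mol, while Insig2 is darkest at GD17.5 and Lbr is red up to Day 10 and pale red at Day 15.

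SREBP2 targets outside sterol synthesis were lower in suckling too, with a smaller median difference than the enzymes. Of 6 listed, 5 were tested, and all 5 were lower in suckling, where 11.7% of all genes were. The median log2 difference was -0.39, against -1.13 for the 16 enzymes and 0.39 for all genes. Aacs, which activates acetoacetate for lipid synthesis, showed the largest difference (1.91 against 9.44 FPKM, -1.84, SE 0.12). Tmem97, a sterol-regulated membrane protein, differed by -0.30 (SE 0.09, adjusted p = 0.0049) and Mmab by -0.30 (SE 0.09, adjusted p = 0.00391). From Day 10 to Day 15, 1 of the 5 fell, against 9 of the 16 enzymes and 10.5% of all genes. From Day 20 to Day 25, 4 of the 5 rose, where 3.94% of all genes did. Aacs had 1.49, 0.896 and 0.975 FPKM in the Day 20 mice and 14.5, 13.2 and 10.1 FPKM in the Day 25 mice, with no overlap (2.68, SE 0.25, adjusted p = 7.4e-09).

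Mmab and Mvk, which are read in opposite directions from the shared promoter stretch printed above, both rose at Day 25. Mmab went from 2.15, 1.95 and 2.19 FPKM to 5.21, 3.36 and 3.96 FPKM (0.73, SE 0.20, adjusted p = 0.0196). Its level was low at every age, between means of 1.42 FPKM at Day 1 and 4.18 FPKM at Day 25.

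Of 7 listed relatives of Stard4 with a START domain, 5 were tested. In suckling 4 were higher and 1 lower, where 68.1% of all genes were higher, and their median log2 difference was 0.42 against 0.39 for all genes. Whether they differed from Stard4 was not tested. Pctp, a phosphatidylcholine carrier (0.47, SE 0.08), Stard3, a late endosomal cholesterol binder (0.47, SE 0.07), Stard7, a mitochondrial lipid carrier (0.42, SE 0.10), and Stard5 (0.31, SE 0.06) were higher, and Stard10, a phospholipid carrier, was lower (-0.59, SE 0.09). With upper quartile scaling none of the 4 was called higher and Stard5 turned to -0.09, while Stard10 was still lower (-1.01). Pctp alone rose from Day 20 to Day 25, by 1.08 (SE 0.18, adjusted p = 0.000132).

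Branches of the pathway that lead to other isoprenoids were mixed. In suckling 68.1% of all genes were higher than after weaning and 11.7% lower. Of 5 genes tested, Pdss1 (coenzyme Q side chain, 0.51, SE 0.05) and Ggps1 (geranylgeranyl diphosphate, 0.21, SE 0.06) were higher in suckling, Pdss2 was lower (-0.14, SE 0.06, adjusted p = 0.0496), and Dhdds (dolichol, -0.15, SE 0.08) and Coq2 (coenzyme Q, 0.10, SE 0.07) were not called. Upper quartile scaling gave 1 higher and 3 lower and turned Coq2 to a negative sign. By limma none of the 5 was called from Day 20 to Day 25, the values running from 0.02 (Ggps1) to 0.44 (Dhdds, adjusted p = 0.119).

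Likeness to each gene was ranked over all tested genes by Pearson r across the 12 age means, given as a description. Cyp51 was the gene most like Sqle (0.940), ahead of the peptidase genes Dnpep (0.924) and Dpp3 (0.917), and Cyp51 itself was followed by Nsdhl (0.935) and Idi1 (0.929). Dhcr7 was most like Fdps (0.966), Nsdhl (0.960) and Rdh11 (0.953), a retinol dehydrogenase gene. For Mvk the list ran Gmppa (0.938), Dhcr7 (0.911) and Aacs (0.897). Stard4 was most like Mapkapk5 (0.940), Lsm10 (0.925) and Dock8 (0.901). Among the 30 genes most like each, sterol enzymes or the genes described numbered 7 for Sqle, 10 for Cyp51, 12 for Dhcr7, 11 for Mvk and 0 for Stard4.

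Mice of the same age also varied together, which the age means do not show. After the mean of each age was subtracted, Sqle and Cyp51 correlated over the 36 mice with r = 0.91, Sqle and Dhcr7 with 0.84, and Cyp51 and Dhcr7 with 0.78. Stard4, for which no step between neighbouring ages passed the test, correlated with Sqle at 0.73 and with Cyp51 at 0.75. Mvk stood apart, at 0.07 with Sqle, -0.05 with Cyp51, 0.32 with Dhcr7 and -0.47 with Stard4. The values of a mouse come from 1 library, and these correlations are given without a test.

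**Figure D5:**
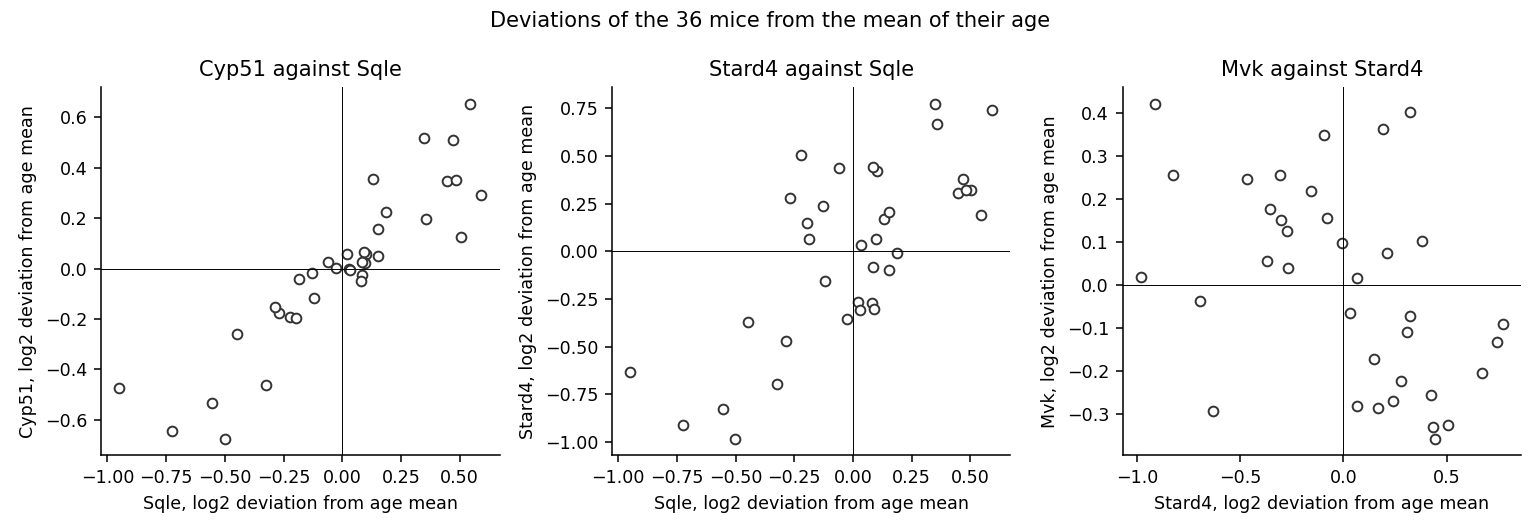
Deviation of each of the 36 mice from the mean of its age, in log2(FPKM + 1), for Cyp51 against Sqle, Stard4 against Sqle and Mvk against Stard4; each circle is a mouse. Circles climb together in the first panel (r = 0.91) and the second (0.73) and slope downward in the third (-0.47).

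Single mice of Days 25, 30 and 45 are examples, drawn from the same values as the correlations. Some other ages went differently. At Day 0, mouse 1 was lowest for all 5 genes, with Mvk at 8.44 FPKM. At Day 5, mouse 3 was lowest for Sqle (21.5 FPKM), Cyp51 (18.8 FPKM) and Dhcr7 (26.5 FPKM) but highest for Stard4 (8.51 FPKM). At Day 25, mouse 2 was the lowest of its age for Sqle (16.3 FPKM), Cyp51 (20.5 FPKM), Dhcr7 (54 FPKM) and Stard4 (1.91 FPKM) and the highest for Mvk (29.4 FPKM). At Day 30, mouse 1 was lowest for Sqle (14.7 FPKM), Cyp51 (14 FPKM), Dhcr7 (17.2 FPKM) and Stard4 (1.47 FPKM), with Mvk at 14 FPKM between its 12.9 and 14.6 FPKM in the other mice. Mouse 3 was lowest for those 4 genes at Day 45 (15.8, 14.5, 36.1 and 1.78 FPKM) and highest for Mvk (18.6 FPKM). The highest mouse over the lowest of an age ran, over the 5 genes, from 1.53 to 4.28 at Day 25, from 1.14 to 4.98 at Day 30 and from 1.07 to 1.61 at Day 60.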

How the data were processed

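Liver RNA was measured in 3 mice at each of 12 ages. The authors made libraries from polyadenylated RNA, mapped paired reads to NCBI37/mm9 and estimated abundance. The submitters' processing notes name TopHat 1.2.0 and Cufflinks 1.0.3. The authors deposited 1 FPKM value per gene symbol and mouse, with no counts and no named scaling between libraries. Columns were matched to samples by their headers, and 0 columns were left over. Relative depth was estimated from ratios between libraries of values below 0.1 FPKM, and ran from 0.888 to 1.32. Of the values of genes below 0.1 FPKM in every mouse, 57.9% lay within 0.1 of a whole fragment. The size of a fragment was set from the lowest values of each gene, so this share is partly built in. The fragments behind the lowest Sqle value were put at about 154, also an estimate. No count test was run.

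Log2(FPKM + 1) of the 11149 genes with an age mean of at least 1 FPKM was fitted with limma 3.58.1 in R 4.3.3, 1 mean per age over all mice, with a mean-variance trend. Adjustment was by Benjamini-Hochberg over all genes within a comparison, or over genes and the 11 comparisons with Day 60 together. The fit was also run on simulated independent normal values, which checks the code and not its assumptions in these data. Genes named beside the 6 are up to 6 per list with the largest difference between suckling and after weaning, Srebf2, Insig1, Mmab, and the 3 most alike to each. Results for some genes of the lists are not reported here. The genes, lists and tests were chosen with earlier results of these data known. The alternatives were a pseudocount of 0.1 FPKM, no filter, a filter at 5 FPKM, upper quartile or equal-sum (TPM) scaling, a replicate block, no trend, a fit to the compared ages alone, and each mouse left out.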

Additional observations from a re-analysis of the deposited data

How the results depend on the processing

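The calls of 4 of 5 genes from Day 20 to Day 25 and in suckling against the ages before it kept their count under every alternative tried, and the count in suckling against after weaning became 5 with upper quartile scaling and 3 without Days 15 and 20 (chosen after seeing the data). The fall at birth, 2 genes, became 1 with upper quartile scaling and ran from 1 to 2 with mice left out. The fall from Day 0 to Day 1, 1 gene, ran from 1 to 2. Pairs that differed, 1 in all, ran from 0 (without Day 5 mouse 3 or Day 10 mouse 1) to 2 (without Day 3 mouse 3). The 14 calls over all steps ran from 12 to 15, and the 11 sterol enzymes that rose at Day 25 from 11 to 14. With upper quartile scaling Sqle had -0.84 (adjusted p = 0.0681) from Day 5 to Day 10, and over all genes the rises and falls at that step went from 210 and 3839 to 752 and 935. Scaling moved the balance at birth as well, from 1466 and 4617 to 2235 and 2906. The cause was not tested. Among single-gene values, 46 lost and 5 gained a call under an alternative, and 2149 did neither.

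Replicate numbers were not taken to pair the mice, since the correlations of deviations of the 198 pairs with the same number ran from -0.68 to 0.829. Their median was 0.126 against -0.0476 for other numbers, and 19 of 36 mice were closest to their own of 3 numbers, a lean towards pairing that is a hint from the data and not from the design. With the replicate block the 14 calls over all steps stayed 14, the sterol enzymes that rose at Day 25 were 13, and the other counts were as without it: 4 genes in each suckling comparison and at Day 25, 2 at birth, 1 at Day 1 and 13 sterol enzymes. No paired form of the pair differences was possible because they rest on age means. Depth was estimated and not given, and with 3 mice an age a change of Stard4 of the size seen at Day 25 could not be told from its spread.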
